A study of Mus musculus with 9 samples.

Results

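The genes described are 10 regulators of neural RNA processing, Ptbp1, Ptbp2, Nova1, Nova2, Rbfox1, Rbfox2, Rbfox3, Elavl3, Elavl4 and Srrm4, taken as the rows with exactly these symbols among the 38197 gene symbols of the deposited tables. All 10 symbols were found, and all 10 passed the filter on low counts, which kept 14742 genes. The NSCs came from wild-type E14.1 mouse ESCs of strain 129, differentiated in monolayer with retinoic acid and the Smo agonist SAG from 0 to 3 days in differentiation conditions (DDC) by the labels, and until slightly later by the methods of the study, and were enriched by magnetic sorting for the progenitor surface protein prominin-1. Every group shares this line, genotype and treatment, and the groups differ only in the time of sorting, which was 4.5DDC, 5.5DDC or 6.5DDC with 3 replicates each, 9 libraries of polyadenylated RNA in all. The labels name the same groups as 4, 5 and 6 days in another field. They do not say whether replicates were separate cultures, so p-values measure only the spread between these libraries, which may be technical.

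RNA-binding proteins shape the neuronal transcriptome by deciding which exons enter the mRNA, how long the mRNA lasts and where it is translated. In dividing neural progenitors, the polypyrimidine tract binding protein Ptbp1 holds many neuronal exons out of mRNAs, among them an exon of its paralog Ptbp2, whose loss sends the Ptbp2 transcript to nonsense-mediated decay. As neurons form, Ptbp1 declines, Ptbp2 takes its place for a time, and proteins of the Nova, Rbfox and Elavl families and the Ser/Arg-related protein Srrm4 direct neuronal splicing. The tables hold 1 value per gene, so they give mRNA levels and not exon inclusion or isoforms.

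The exon through which Ptbp1 acts on its paralog is shown because the Ptbp1 to Ptbp2 balance is the central comparison. Both genes carry such an exon of 34 bases, read from GENCODE M21 transcripts on GRCm38, in Ptbp1 at chr10:79862014-79862047 on the plus strand and in Ptbp2 at chr3:119724612-119724645 on the minus strand. The exons are identical at 26 of 34 positions (76.5%), and capitals mark the positions at which they differ.
Ptbp1 exon: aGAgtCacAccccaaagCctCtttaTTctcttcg
Ptbp2 exon: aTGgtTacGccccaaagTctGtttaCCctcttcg
Of the 7 annotated Ptbp1 transcripts that span this site, 4 contain the exon and 2 skip it, and both of the latter are annotated as targets of nonsense-mediated decay. Of the 6 Ptbp2 transcripts that span its site, 3 contain the exon and 3 skip it, of which 2 carry that annotation. A gene-level count adds up reads of the including and the skipping forms.

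Counts per library summed to between 11066572 and 25506192, so that 3 counts correspond to at most 0.271 CPM, a count scaled to its library total. Differences were tested with edgeR's quasi-likelihood test on TMM-scaled counts, with 0.05 as the limit on the adjusted p for calling a change. Levels are the authors' FPKM, read numbers scaled to transcript length and sequencing depth. Neural progenitor markers (11 genes) summed to between 2282 and 3327 FPKM in every library, neuron markers (11 genes) to between 165 and 863 FPKM, and the pluripotent cell markers Pou5f1, Nanog and Zfp42 stayed at or under 0.634 FPKM. The libraries thus hold neuronal transcripts beside the progenitor transcripts of the sorted fraction, and fewer cells of a type cannot be told apart from less RNA per cell.

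Ptbp1 fell over the whole span and was the single member called in the fit of all 9 libraries with time as the only factor. In FPKM, the 3 libraries of 4.5DDC had 294.9, 346 and 237 (replicates 1, 2 and 3), those of 5.5DDC had 319.6, 267 and 292, and those of 6.5DDC had 172, 153 and 172. The libraries of 4.5DDC and 5.5DDC thus overlapped, and all libraries of 6.5DDC lay below all others. Mean FPKM was 293 ± 54.6, then 293 ± 26.1, then 166 ± 11.2 in order of time (SD, n = 3). Between 4.5DDC and 6.5DDC the counts of Ptbp1 fell by 1.18 in log2 units (SE 0.22, adjusted p = 0.00737), which is a 2.27-fold lower level. Between libraries of the same number the log2 change was −1.03 (replicate 1), −1.79 (replicate 2) and −0.68 (replicate 3). Over the same span, 18.7% of all tested genes changed, 9.53% lower and 9.21% higher.

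The timing of the Ptbp1 decline was less certain than its presence. From 4.5DDC to 5.5DDC the log2 fold change was −0.20 (SE 0.22, adjusted p = 0.714), and from 5.5DDC to 6.5DDC it was −0.98 (SE 0.22, adjusted p = 0.098). The second step did not pass the threshold with edgeR but did with the Wald test of DESeq2 (adjusted p = 0.00343), and the adjusted p over the 19 alternatives lay between 0.00343 and 0.393. The second step exceeded the first by −0.78 on the log2 scale (SE 0.37, edgeR's unadjusted p = 0.0593, adjusted p = 0.76). In this test 0 genes passed and 0.76 was the smallest adjusted p of any gene. It therefore cannot decide whether the fall belongs to one day. Libraries did not overlap in FPKM for 24% of genes from 5.5DDC to 6.5DDC, for 34.5% from 4.5DDC to 6.5DDC and for 23.8% from 4.5DDC to 5.5DDC, and among the members only Ptbp1 lacked overlap, in all of these comparisons but the last. With 3 libraries against 3, the exact permutation test cannot give a p under 0.1, which Ptbp1 reached for both (two-sided).

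The whole-span fall of Ptbp1 was called under all 19 alternatives, with adjusted p up to 0.0362, and its size depended on the unit. It was −0.80 on the log2(FPKM + 1) scale against −1.18 in the counts, and the FPKM show no fall from 4.5DDC to 5.5DDC. In the test across the 3 time points, Ptbp1 was the only member that differed (adjusted p = 0.0205), against 9.63% of all genes. A block for the replicate number in edgeR's model added calls, so that Ptbp1 (adjusted p = 0.0115), Nova1 (adjusted p = 0.0301) and Rbfox1 (adjusted p = 0.0153) differed, against 14.8% of all genes. Without the block, leaving out 4.5DDC replicate 2, 6.5DDC replicate 2 or 6.5DDC replicate 3 raised the adjusted p of Ptbp1 to 0.0549, 0.0974 and 0.0552. Ptbp1 is at chr10:79854427-79864771 (GRCm38, plus strand), and 20.7% of its exonic bases overlap Plppr3, E130317F20Rik or Gm17134 on the opposite strand. Whether counting used the strand is not given in the sources used here, so reads of these genes cannot be told apart from those of Ptbp1 there. E130317F20Rik itself had 3.13 ± 0.267 FPKM at 4.5DDC and 2.33 ± 0.505 FPKM at 6.5DDC (SD, n = 3), and Gm17134 was listed at 0 in every library. Plppr3 was not matched to a symbol of the tables, which may list it under an older name, so its level is not analysed here and its share of the reads in the overlap is unknown.

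Markers of dividing cells were also lower at 6.5DDC than at 4.5DDC. The summed level of Mki67, Top2a, Ccnb1, Cdk1, Mcm2 and Pcna lay between 872 and 1130 FPKM at 4.5DDC, 604 and 763 FPKM a day later and 300.0 and 577 FPKM at the end. All 6 fell over the whole span, against 9.53% of all genes, with log2 fold changes from −1.09 (Ccnb1) to −1.72 (Pcna). Of the 6, 4 kept the call under all 19 alternatives (not Cdk1 and Top2a). Within all 3 replicate numbers each of the 6 was lower at 6.5DDC, with log2 changes from −0.46 to −1.07 in replicate 1, −0.78 to −2.18 in replicate 2 and −1.30 to −2.20 in replicate 3. Their part in the fall of Ptbp1 was not tested.

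**Figure D1:**
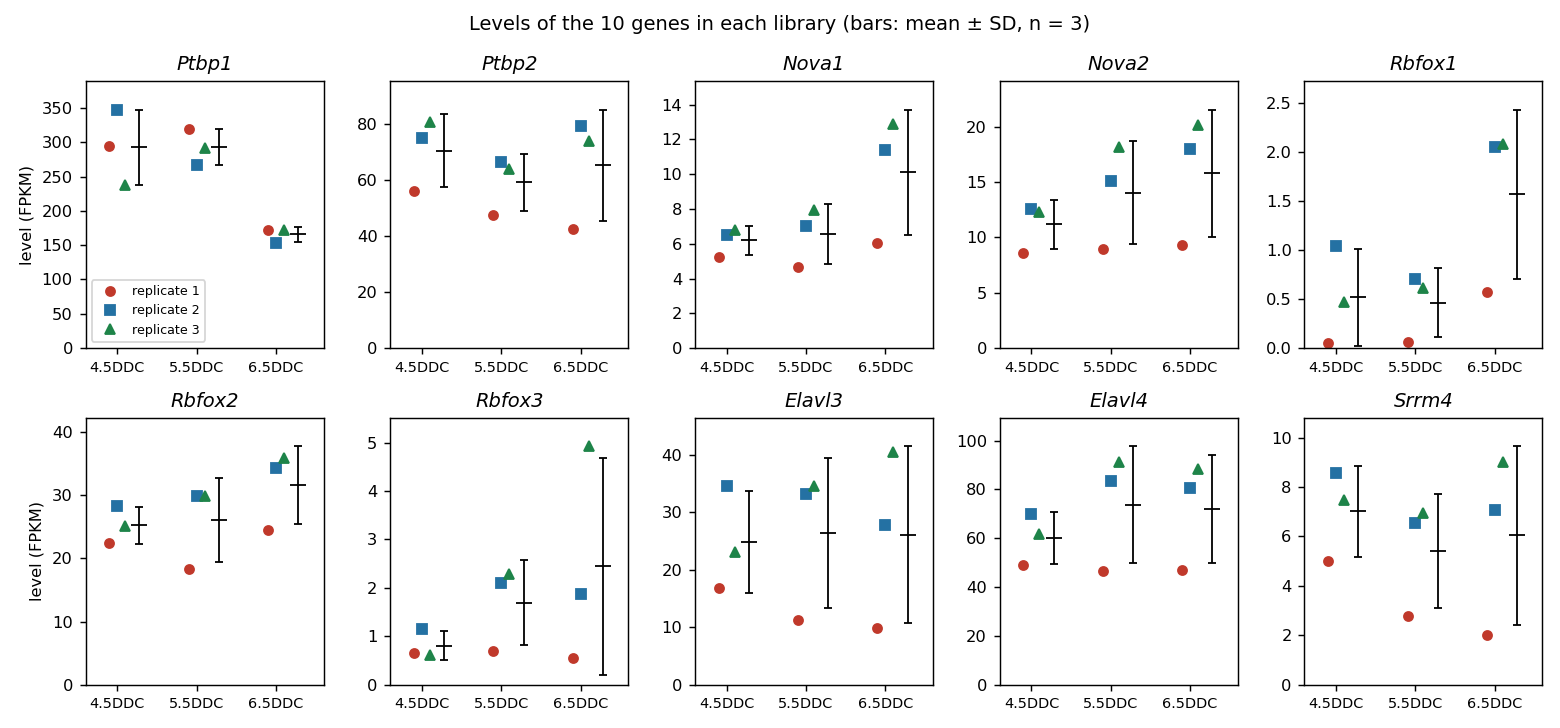
Level of each of the 10 genes in each of the 9 libraries, in FPKM on the vertical axis (each panel has its own scale, starting at 0), against time of sorting. Symbols are replicates 1, 2 and 3 and black bars are mean ± SD (n = 3). Ptbp1 lies between 153 and 172 FPKM at 6.5DDC and at 237 FPKM or more before, and replicate 1 (circles) is the lowest library at most time points in the other panels.

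Ptbp2, the paralog that follows Ptbp1 in young neurons, showed no change that these libraries could resolve. Its locus is chr3:119718742-119784466 (minus strand), and no annotated exon on the opposite strand overlaps its exons. Replicates 1, 2 and 3 had 55.9, 74.7 and 80.6 FPKM at 4.5DDC, 47.5, 66.2 and 63.9 FPKM at 5.5DDC, and 42.6, 79.2 and 73.9 FPKM at 6.5DDC. The time points overlapped, and at each of them replicate 1 was the lowest library. The log2 fold change was −0.30 from 4.5DDC to 5.5DDC (SE 0.24, adjusted p = 0.605), 0.17 from 5.5DDC to 6.5DDC (SE 0.24, adjusted p = 0.731) and −0.13 over the whole span (SE 0.24, adjusted p = 0.736). The sign of the whole-span value changed on leaving out 1 library, reaching 0.02 (4.5DDC replicate 3 absent) and 0.08 (6.5DDC replicate 1 absent).

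The balance of the paralogs was taken as the ratio of Ptbp1 to Ptbp2 in each library. In FPKM the ratio was 5.27, 4.63 and 2.94 at 4.5DDC (replicates 1, 2 and 3), 6.73, 4.04 and 4.57 at 5.5DDC, and 4.04, 1.93 and 2.32 at 6.5DDC. Replicate 1 had the highest ratio of its time point each time, and its value at 6.5DDC lay among the values of the earlier time points. The mean log2 ratio was 2.06 ± 0.44 at 4.5DDC, 2.32 ± 0.38 at 5.5DDC and 1.39 ± 0.56 at 6.5DDC (SD, n = 3). From 5.5DDC to 6.5DDC it changed by −0.93 (two-sided exact permutation test, p = 0.2), and it was lower at 6.5DDC in 3 of 3 replicate numbers, by −0.74, −1.07 and −0.98. The libraries overlapped narrowly, at 2.0156 (replicate 1 of 6.5DDC) against 2.0150 (replicate 2 of 5.5DDC). With 1 added to each FPKM they did not overlap (exact permutation test, p = 0.1). From 4.5DDC to 6.5DDC the mean log2 ratio in FPKM changed by −0.66 (exact permutation test, p = 0.2) and from 4.5DDC to 5.5DDC by 0.26 (exact permutation test, p = 0.6). The slope over all 9 libraries was −0.33 per day (exact permutation test, p = 0.176). Its size depended on single libraries, with the range given under how the results depend on the processing.

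Comparisons of 3 libraries with 3 cannot give a p under 0.1, so these tests could not pass the threshold whatever the size of the change, and only the slope could. The ratio taken from counts had a steeper slope of −0.51 per day, which also missed the threshold (exact permutation test, p = 0.0976). From 5.5DDC to 6.5DDC the log2 ratio of counts changed by −1.12 with no overlap between the libraries, which gives the smallest p possible (exact permutation test, p = 0.1). Its level depended on how gene length was handled. With counts per kilobase of all exons in GENCODE M21 (4.74 kb for Ptbp1 and 9.18 kb for Ptbp2), a choice made after seeing the data, the geometric mean ratio was 2.17 at 4.5DDC, 2.34 at 5.5DDC and 1.07 at 6.5DDC, against 4.16, 4.99 and 2.63 in FPKM. By this measure Ptbp2 exceeded Ptbp1 in 1 library, replicate 2 of 6.5DDC, with a ratio of 0.682, whereas in FPKM Ptbp1 was the higher in all 9.

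**Figure D2:**
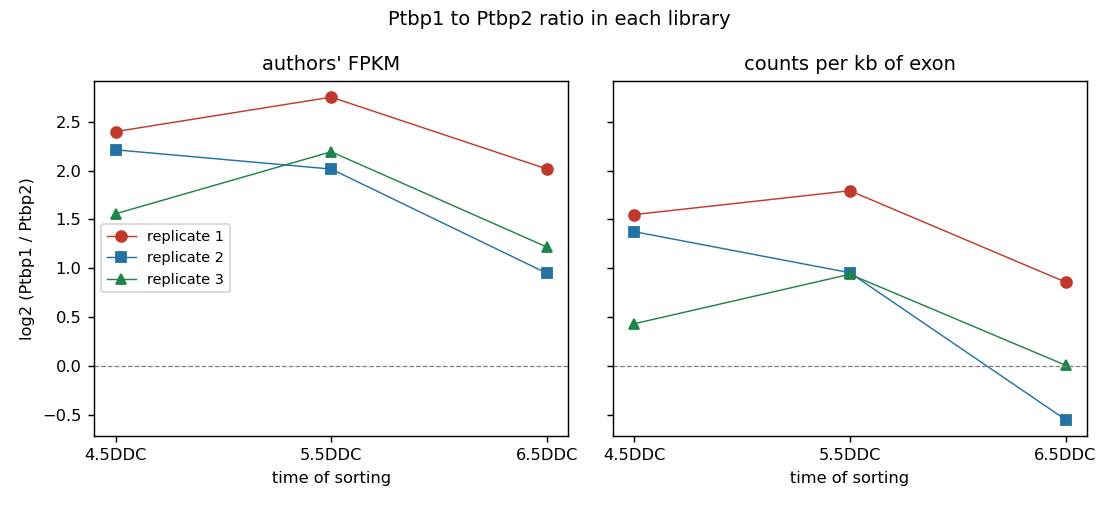
Ratio of Ptbp1 to Ptbp2 on the log2 scale in each library against time of sorting, from the authors' FPKM (left) and from counts per kilobase of exon (right). Lines join libraries of the same replicate number and the dashed line marks equal levels. The FPKM ratio ends at 2.02 (replicate 1), 0.95 (replicate 2) and 1.22 (replicate 3) at 6.5DDC, and the right panel lies lower throughout.

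The Nova genes encode KH-domain proteins that bind RNA at clusters of short pyrimidine-flanked motifs and set neuronal exons and 3′ ends. Nova1 had 5.25, 6.51 and 6.80 FPKM at 4.5DDC (replicates 1, 2 and 3), 4.67, 7.04 and 7.96 FPKM at 5.5DDC, and 6.03, 11.4 and 12.9 FPKM at 6.5DDC. Replicates 2 and 3 of 6.5DDC lay above all other libraries, whereas replicate 1 lay among the earlier ones. Its log2 fold change over the whole span was 0.69 (SE 0.28, adjusted p = 0.111). With time as the only factor, it was called without replicate 1 of 6.5DDC (0.93, adjusted p = 0.0234) and, in a fit chosen after seeing the data, without replicate 1 of every time point (0.81, adjusted p = 0.00506), and its adjusted p reached 0.282 without replicate 2 of 6.5DDC. The replicate block also called Nova1 over the whole span (0.64, adjusted p = 0.0192). Across genes, deviations of same-numbered libraries correlated there at 0.383 (replicate 1), −0.040 (replicate 2) and −0.215 (replicate 3). Nova1 itself was lowest in replicate 1 at every time point. The Nova1 gene is at chr12:46694517-46818929 (minus strand).

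Nova2 had 8.61, 12.6 and 12.3 FPKM at 4.5DDC (replicates 1, 2 and 3), 8.98, 15.1 and 18.1 FPKM at 5.5DDC, and 9.31, 18.0 and 20.2 FPKM at 6.5DDC. Replicate 1 hardly differed between time points, while replicates 2 and 3 were each higher at every later time point. The whole-span log2 fold change was 0.42 (SE 0.32, adjusted p = 0.367), and it passed without replicate 1 of every time point (0.51, adjusted p = 0.0298) and under no other alternative. It ranged from 0.22 (without replicate 3 of 6.5DDC) to 0.69 (without replicate 1 of 6.5DDC) when single libraries were left out. The Nova2 gene is at chr7:18925888-18965319 (plus strand), and 31.7% of its exonic bases overlap Gm26821 on the opposite strand.

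The Rbfox proteins recognise a short conserved element beside alternative exons, and Rbfox3 is the antigen known as NeuN, a marker of mature neurons. Rbfox2 was the abundant member of the family, with 22.4, 28.2 and 25.0 FPKM at 4.5DDC (replicates 1, 2 and 3), 18.3, 29.8 and 29.8 FPKM at 5.5DDC, and 24.5, 34.2 and 35.9 FPKM at 6.5DDC. Its whole-span log2 fold change was 0.31 (SE 0.21, adjusted p = 0.319), and the libraries overlapped in every comparison. Its locus is chr15:77078990-77307004 (minus strand).

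Rbfox1 and Rbfox3 were near the lower end of detection. Rbfox1 had 5, 60 and 35 counts at 4.5DDC (0.054, 1.04 and 0.467 FPKM in replicates 1, 2 and 3), 5, 42 and 35 counts at 5.5DDC (0.060, 0.707 and 0.617 FPKM) and 37, 175 and 171 counts at 6.5DDC (0.567, 2.04 and 2.08 FPKM). Within each replicate number the highest level was at 6.5DDC, but replicate 1 of 6.5DDC stayed within the range of the earlier libraries. The whole-span log2 fold change was 1.61 (SE 1.01, adjusted p = 0.282), and among fits with time as the only factor it passed without replicate 1 of every time point (1.44, adjusted p = 0.0157). With single libraries left out the estimate ranged from 1.05 (without replicate 1 of 4.5DDC) to 2.54 (without replicate 2 of 4.5DDC), with adjusted p up to 0.492. The replicate block also called Rbfox1 over the whole span (1.98, adjusted p = 0.0147). Same-numbered libraries correlated positively there only in replicate 1, in which Rbfox1 was lowest at every time point. Rbfox1 spans 1526 kb at chr16:5885355-7411526 (plus strand), against a median of 17.4 kb for protein-coding genes in the annotation.

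Rbfox3 had 30, 47 and 33 counts at 4.5DDC (0.663, 1.15 and 0.614 FPKM in replicates 1, 2 and 3), 63, 69 and 59 counts at 5.5DDC (0.694, 2.11 and 2.29 FPKM) and 25, 73 and 218 counts at 6.5DDC (0.548, 1.87 and 4.92 FPKM). In FPKM the highest library, replicate 3 of 6.5DDC, and the lowest, replicate 1 of 6.5DDC, belonged to the same time point. In CPM replicate 3 of 6.5DDC was also the highest, but the lowest was replicate 1 of 4.5DDC (1.67, against 2.05 in replicate 1 of 6.5DDC). The whole-span log2 fold change was 1.29 (SE 0.65, adjusted p = 0.185) and rested mostly on that highest library, without which it was 0.28 (adjusted p = 0.751). From 5.5DDC to 6.5DDC it turned from 0.56 to −0.44 without replicate 3 of 6.5DDC. The Rbfox3 gene is at chr11:118489762-118911597 (minus strand).

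Elavl3 and Elavl4, also called HuC and HuD, bind AU-rich elements and are among the early proteins of postmitotic neurons. Elavl3 had 16.8, 34.5 and 23.1 FPKM at 4.5DDC (replicates 1, 2 and 3), 11.3, 33.3 and 34.6 FPKM at 5.5DDC, and 9.87, 27.8 and 40.5 FPKM at 6.5DDC. Replicate 1 was lower at each later time point, replicate 2 was lower too, and replicate 3 was higher. The log2 fold change over the whole span was 0.04 (SE 0.51, adjusted p = 0.959), within a range of −0.38 to 0.42 when single libraries were left out. Its locus is chr9:22015005-22052023 (minus strand).

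Elavl4 was the more abundant of the pair in every library. It had 48.9, 70.1 and 61.7 FPKM at 4.5DDC (replicates 1, 2 and 3), 46.7, 83.3 and 91.4 FPKM at 5.5DDC, and 46.9, 80.7 and 88.4 FPKM at 6.5DDC. Replicate 1 stayed between 46.7 and 48.9 FPKM, below all libraries of replicates 2 and 3. The whole-span log2 fold change was 0.25 (SE 0.29, adjusted p = 0.581), and with single libraries left out it ranged from 0.10 (without replicate 1 of 4.5DDC) to 0.47 (without replicate 1 of 6.5DDC). The Elavl4 gene is at chr4:110203722-110351909 (minus strand).

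Srrm4, also called nSR100, promotes the inclusion of neuronal microexons and acts against Ptbp1 at many neuronal exons. It had 4.99, 8.58 and 7.47 FPKM at 4.5DDC (replicates 1, 2 and 3), 2.77, 6.55 and 6.95 FPKM at 5.5DDC, and 2.03, 7.08 and 9.01 FPKM at 6.5DDC. Replicate 1 again had the lowest library of each time point, and within it the level was lower at each later time point. The whole-span log2 fold change was −0.24 (SE 0.50, adjusted p = 0.763), and its sign turned without replicate 1 of 6.5DDC (0.16). The Srrm4 gene is at chr5:116439275-116591817 (minus strand), with Srrm4os overlapping 0.784% of exonic bases.

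Counted over the members, 0 of 10 changed from 4.5DDC to 5.5DDC, where edgeR called 0.0746% of all genes, and 0 of 10 had an unadjusted p under 0.05, against 15.4% of all genes. From 5.5DDC to 6.5DDC, 0 of 10 changed against 0.224% of all genes, 2 of 10 (Ptbp1 and Nova1) had an unadjusted p under 0.05 against 18.5% of all genes, and DESeq2 called 1 (Ptbp1) against 4.49%. Over the whole span 1 of 10 changed (Ptbp1, lower) against 18.7% of all genes, and 2 of 10 had an unadjusted p under 0.05 against 35.4%. DESeq2 called 1 against 24.9% of all genes. With time as the only factor, limma voom and limma on log2 FPKM with a pseudocount of 1 or 0.1 also called 1. Of all 14742 genes, these fits called 2660, 2472 and 2275, in that order. The replicate block called 3 (Ptbp1, Nova1 and Rbfox1) over the whole span, against 23.2% of all genes. The median log2 fold change over the whole span was 0.28 for the members and 0.0040 for all tested genes. Without replicate 1 of every time point, 4 of 10 members changed over the whole span (Ptbp1 lower, Nova1, Nova2 and Rbfox1 higher), against 31.3% of all genes in that fit. From 5.5DDC to 6.5DDC that fit called 2 of 10 (Nova1 and Rbfox1), against 4.97% of all genes.

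**Figure D3:**
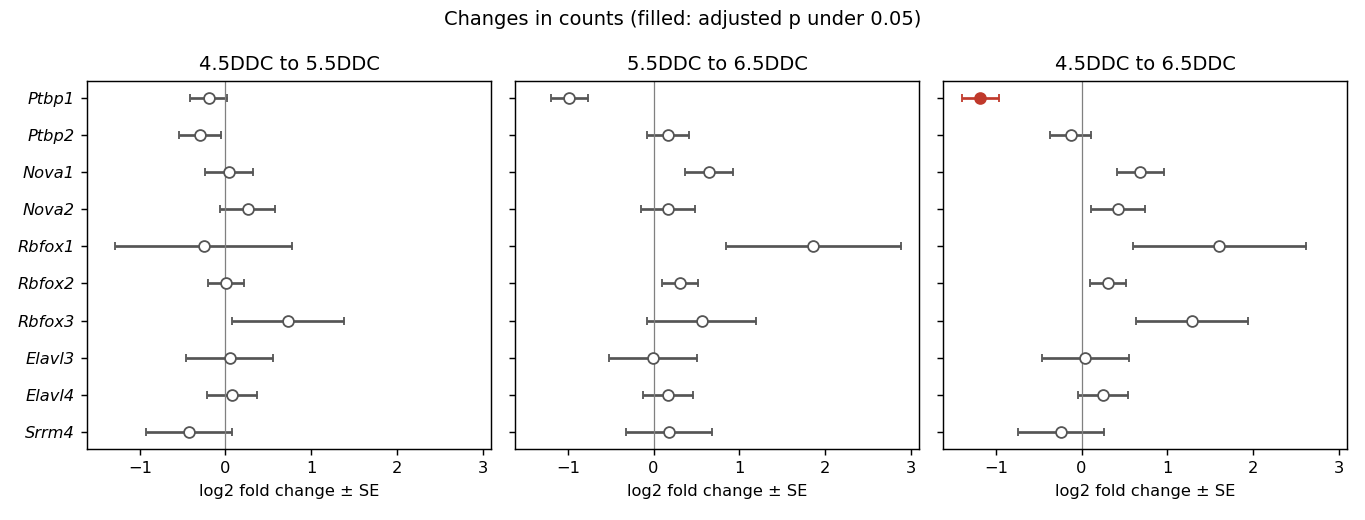
Log2 fold change in counts (horizontal axis, points, with bars of 1 SE) of the 10 genes for 4.5DDC to 5.5DDC, 5.5DDC to 6.5DDC and 4.5DDC to 6.5DDC, from edgeR's fit of all 9 libraries. Filled red points passed an adjusted p of 0.05, which only Ptbp1 did, at −1.18 over the whole span, and Rbfox1 has the widest bars (1.01 over the whole span).

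The order of the levels depended on how length was handled. In FPKM, Ptbp1 was the highest member at each time point and did not overlap with the next. Ptbp2 and Elavl4 followed, with overlapping libraries and Ptbp2 first at 4.5DDC (70.4 against 60.2 FPKM) but second at 6.5DDC (65.2 against 72.0 FPKM). Rbfox2 and Elavl3 came next and overlapped with each other, with 25.2 and 24.8 FPKM at 4.5DDC and 31.5 and 26.1 FPKM at 6.5DDC. Nova2 (11.2, 14.1 and 15.8 FPKM in order of time) stood above Srrm4 (7.01, 5.42 and 6.04 FPKM) and Nova1 (6.19, 6.56 and 10.1 FPKM), which overlapped. Rbfox3 (0.808, 1.70 and 2.45 FPKM) and Rbfox1 (0.519, 0.461 and 1.56 FPKM) were the lowest and overlapped. At 6.5DDC every neighbouring pair from Rbfox2 down overlapped in FPKM. By CPM per kilobase of all annotated exons, chosen after seeing the data, Ptbp1 was first at 4.5DDC (72.6 against 50.5 for Elavl4) and 5.5DDC (63.3 against 53.2), with overlapping libraries. At 6.5DDC Elavl4 was first by that measure, at 59.9 ± 18.0 CPM per kilobase (SD, n = 3), and overlapped with no library of the next, Rbfox2 (32.9 ± 5.64). Ptbp1 was the third there (32.0 ± 5.98) and overlapped with Rbfox2 and Ptbp2 (30.4 ± 8.75).

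Members also differed between the replicate numbers. In log2 CPM, replicate 1 was the lowest of the 3 libraries at every time point for 9 of 10 members, all but Ptbp1, and for 12.5% of all genes. With the replicate number as a tested factor beside the time point, chosen after seeing the data, 6 of 10 members differed between the numbers (Nova1, Nova2, Rbfox1, Elavl3, Elavl4 and Srrm4, adjusted p from 0.0165 to 0.0488), against 5.41% of all genes. In a model of the same form 3 of 10 differed across the time points (Ptbp1, Nova1 and Rbfox1), against 14.8% of all genes. Replicate 1 deviated from the mean of replicates 2 and 3 by −2.80 in Rbfox1, −1.35 in Elavl3, −1.34 in Srrm4, −0.82 in Nova2, −0.74 in Elavl4 and −0.67 in Nova1 on the log2 scale. Ptbp2 (−0.57, adjusted p = 0.0755), Rbfox2 (−0.48, adjusted p = 0.136) and Rbfox3 (−1.29, adjusted p = 0.167) did not pass, nor did Ptbp1, at 0.30 (adjusted p = 0.794).

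Neuron markers also differed between the replicate numbers. Their summed level in replicate 1 was 193, 165 and 361 FPKM at 4.5DDC, 5.5DDC and 6.5DDC, against 557, 651 and 831 FPKM in replicate 2 and 359, 660.2 and 863 FPKM in replicate 3. Of the 11 tested neuron markers, 9 differed between the replicate numbers, all 9 lower in replicate 1, whereas 0 of 11 progenitor markers and 0 of 6 proliferation markers did. Of all genes, 5.41% differed between the numbers. Progenitor markers, of which Vim had the highest mean level, summed to between 2411 and 3327 FPKM in replicate 1 and between 2282 and 3249 FPKM in the other replicates. The endoderm markers Sox17, Afp, Gata4 and Ttr, of which 2 were tested and both differed between the numbers, summed to between 2.84 and 11.1 FPKM in replicate 1 and at most 1.95 FPKM in the others. The part of these cell types in the members' values was not tested. What libraries with a common replicate number share is not in the labels.

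**Figure D4:**
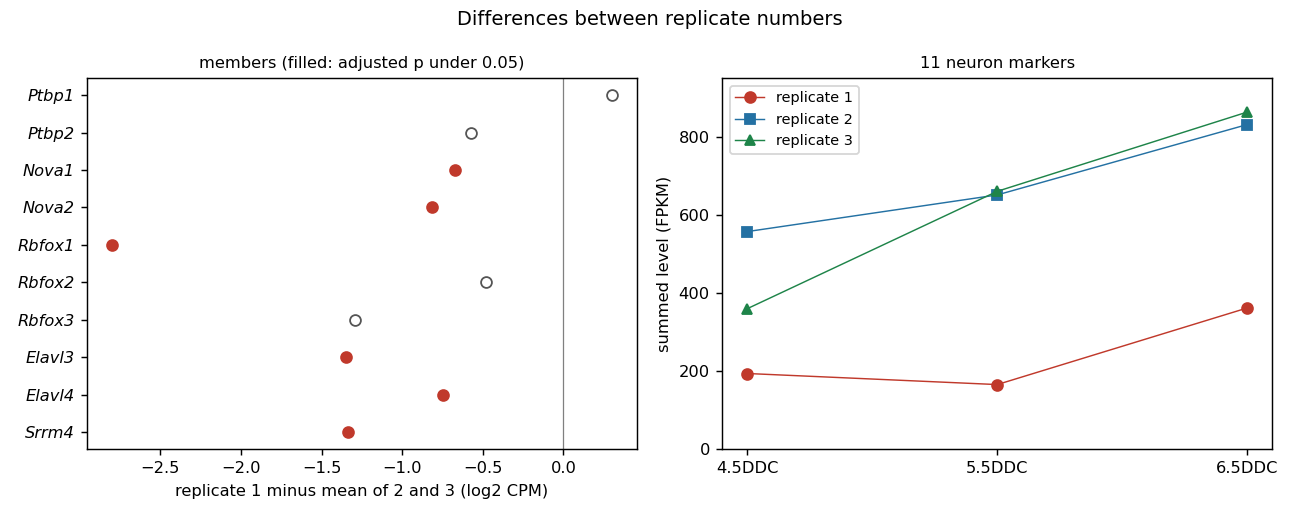
Left, deviation of replicate 1 from the mean of replicates 2 and 3 on the log2 CPM scale, averaged over the 3 time points, for each of the 10 genes (filled red, adjusted p under 0.05 for the replicate number). Right, summed FPKM of 11 neuron markers in each library against time of sorting. All members but Ptbp1 lie to the left of 0, and replicate 1 has the lowest neuron marker sum at every time point (193, 165 and 361 FPKM).

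Genes whose pattern over the 9 libraries was most like that of a member were sought among the 10142 tested genes whose mean reached 5 FPKM, by the root mean square (RMS) difference of log2 CPM after centring each gene on its own mean. The nearest to Ptbp1 were Arl6ip4 (0.104), Ccnd3 (0.107), which encodes a D-type cyclin, and Enkd1 (0.113), where the median gene lay at 0.611. Ccnd3 went from a mean of 43.7 FPKM at 4.5DDC to 17.7 FPKM at 6.5DDC. The nearest to Ptbp2 included Plcb4 (0.083) and Ago1 (0.108), an Argonaute gene. Soga3 (0.135), Ebf1 (0.137) and Tbc1d9 (0.153) were nearest to Elavl3, and Ebf1 is a transcription factor gene of early neurons. Enc1 (0.135), Insm1 (0.175), a zinc finger gene of newborn neurons, and Clvs1 (0.215) were nearest to Srrm4. These values describe the same 9 libraries, including the low replicate 1, and carry no test.

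Among paralogs and partners of the members, 1 of 8 changed over the whole span, against 18.7% of all genes. Raver1, which encodes a corepressor that binds Ptbp1, fell by 0.93 on the log2 scale (SE 0.23, adjusted p = 0.0218, called under 15 of 19 alternatives), from 30.9 ± 9.99 FPKM at 4.5DDC and 30.1 ± 1.11 FPKM at 5.5DDC to 16.2 ± 3.68 FPKM at 6.5DDC (SD, n = 3). Ptbp3, the third paralog of the family, was at 32.5 ± 4.16 FPKM at 4.5DDC and 35.5 ± 2.96 FPKM at 6.5DDC (log2 fold change 0.21, adjusted p = 0.341). The neuronal paralogs Elavl2 and Srrm3 did not pass over time, at 0.56 (adjusted p = 0.583) and 0.58 (adjusted p = 0.525), and differed between the replicate numbers, with replicate 1 lower by −1.96 (adjusted p = 0.00149) and −1.55 (adjusted p = 0.0353). Elavl1, the ubiquitous paralog, had a log2 fold change of −0.39 (adjusted p = 0.12).

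Of 18 other tissue-regulated splicing regulators, 4 rose and 2 fell over the whole span, against 9.21% and 9.53% of all genes. Celf4 rose by 2.03 (SE 0.62, adjusted p = 0.0463), from 1.84 ± 0.569 to 7.70 ± 4.99 FPKM, Celf5 by 1.86 (SE 0.57, adjusted p = 0.0473), from 1.75 ± 0.580 to 5.84 ± 3.74 FPKM, and Celf2 by 0.78 (SE 0.14, adjusted p = 0.00634), from 21.2 ± 0.844 to 33.9 ± 4.59 FPKM (SD, n = 3). Mbnl2, a regulator of splicing that rises in differentiated tissues, rose by 0.83 (SE 0.22, adjusted p = 0.0309). Celf1, the broadly expressed relative, fell by 0.43 (SE 0.13, adjusted p = 0.0419), from 93.6 ± 4.29 to 65.5 ± 2.85 FPKM, and Rbm38 fell by 1.47 (SE 0.36, adjusted p = 0.0222). The calls of Celf4 and Celf5 held under 8 of 19 alternatives each and that of Celf1 under 9 of 19.

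Of 19 regulators of mRNA stability, translation and transport, 2 rose and 2 fell over the whole span, against 9.21% and 9.53% of all genes. Igf2bp1 and Igf2bp3, which encode mRNA-binding proteins typical of embryonic tissue, fell by 1.24 (SE 0.13, adjusted p = 0.000976) and 0.57 (SE 0.13, adjusted p = 0.0176). Igf2bp1 went from 74.0 ± 6.86 through 45.7 ± 0.377 to 24.7 ± 1.09 FPKM (SD, n = 3). Cpeb3 and Cpeb2, which encode proteins that control translation through the poly(A) tail, rose by 1.77 (SE 0.21, adjusted p = 0.00151) and 1.49 (SE 0.23, adjusted p = 0.00396), Cpeb3 from 1.13 ± 0.256 to 3.98 ± 0.634 FPKM. The progenitor gene Msi1 had a log2 fold change of −0.56 and did not pass (adjusted p = 0.074).

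The general splicing factors were lower at the end of the span or did not pass, with 1 exception. Of 13 SR protein genes, 5 fell (Srsf1, Srsf2, Srsf4, Srsf7 and Srsf9, by 0.55 to 0.95 on the log2 scale) and Srsf12 rose by 1.53 (SE 0.37, adjusted p = 0.021) at a low level of 0.875 FPKM at 4.5DDC and 2.52 FPKM at 6.5DDC. Of 23 hnRNP and PCBP genes, 8 fell (Hnrnpab, Hnrnpd, Hnrnpf, Hnrnph1, Hnrnpm, Hnrnpul1, Pcbp1 and Pcbp4, by 0.35 to 1.13) and 0 rose. The median log2 fold change was −0.45 for the SR protein genes and −0.35 for the hnRNP and PCBP genes, against 0.0040 for all genes. In these 5 groups of RNA-binding protein genes together, 25 of 81 changed over the whole span (7 higher and 18 lower), against 18.7% of all genes. The count was 14 with limma on log2(FPKM + 0.1), 20 on log2(FPKM + 1) and 35 without replicate 1 of every time point. Of all 14742 genes, those log2 FPKM fits called 2275 and 2472, and the fit without replicate 1 called 31.3% of its genes. Only Celf2, Cpeb2, Cpeb3, Igf2bp1 and Srsf2 kept their call under all 19 alternatives. In the first interval 0 of 81 passed with edgeR, 23 had an unadjusted p under 0.05 and DESeq2 called 4, and in the second interval 0 of 81 passed, 17 had an unadjusted p under 0.05 and DESeq2 called 7. The shares of all genes called by DESeq2 were 3.36% and 4.49%. With the replicate block 2 of 81 passed in the first interval and 1 of 81 in the second, against 1.44% and 1.32% of all genes.

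**Figure D5:**
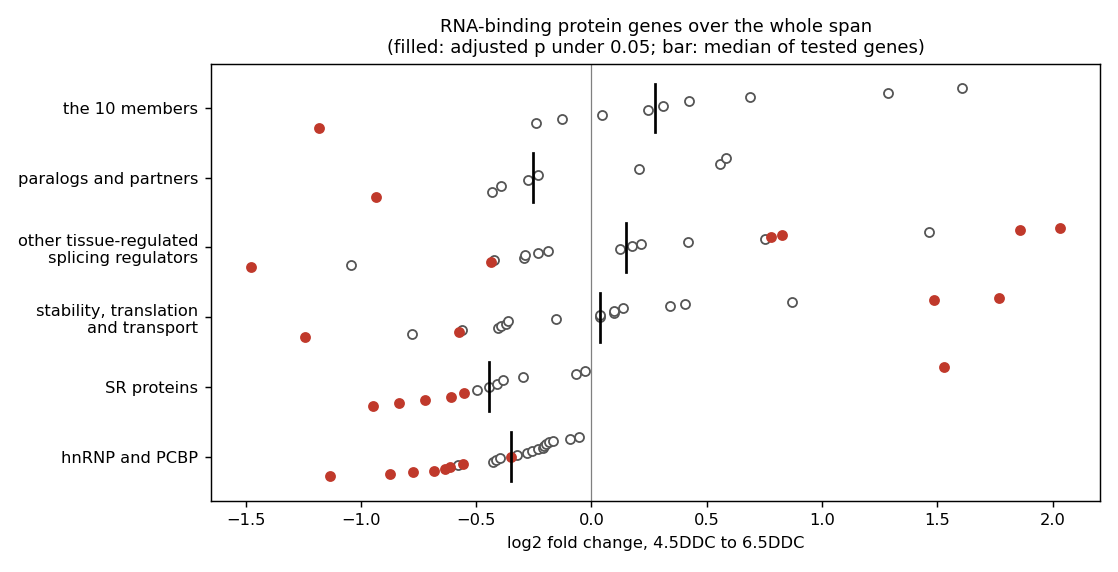
Log2 fold change from 4.5DDC to 6.5DDC (horizontal axis) of each tested gene in 6 groups of RNA-binding protein genes, 1 row per group. Points are genes (filled red, adjusted p under 0.05) and vertical bars are medians of the tested genes. Medians are 0.28 for the 10 members, −0.45 for SR proteins and −0.35 for hnRNP and PCBP genes.

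Rest, the repressor of neuronal genes in progenitors, is linked to the members because Srrm4 alters its splicing. It had 14.0 ± 3.72, 14.6 ± 4.60 and 12.3 ± 1.17 FPKM in order of time (SD, n = 3), with a whole-span log2 fold change of −0.19 (SE 0.25, adjusted p = 0.615). Of 6 tested genes of Rest and its partners, 1 changed, against 18.7% of all genes. This was the corepressor gene Rcor2, which fell by 0.72 (SE 0.21, adjusted p = 0.0388). Its call was lost under 12 of 19 alternatives (adjusted p up to 0.138), limma voom and both log2 FPKM fits among them. Among genes whose mRNA levels the members are known to control, Gabbr1, which encodes a GABA receptor subunit, rose (adjusted p = 0.0235, called under 12 of 19 alternatives), from 36.6 ± 1.03 to 73.2 ± 31.4 FPKM. Dlg4, which encodes the postsynaptic protein PSD-95 and holds an exon that Ptbp1 and Ptbp2 repress, had 34.2 ± 7.62, 54.6 ± 6.65 and 50.5 ± 15.0 FPKM in order of time (log2 fold change 0.43, adjusted p = 0.354).

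Of the 11 neuron markers, 2 rose over the whole span, against 9.21% of all genes. These were Map2, by 1.65 (SE 0.31, adjusted p = 0.00768), and Syt1, by 3.19 (SE 0.36, adjusted p = 0.00133). DESeq2 called 4, the replicate block 6 and the fit without replicate 1 of every time point 7. The shares of all genes called by these fits were 24.9%, 23.2% and 31.3%. Of the 11 progenitor markers, Prom1 (1.19, adjusted p = 0.00363), the gene of the sorted antigen, and Cdh2 (0.64, adjusted p = 0.0325) rose and Sox3 (−1.80, adjusted p = 0.033) and Nkx6-1 (−1.14, adjusted p = 0.022) fell. Over all genes, edgeR with time as the only factor called 9.21% higher and 9.53% lower. Single genes of other marker groups also rose, Twist1 of 4 mesenchyme and neural crest markers (0.74, adjusted p = 0.0276), Aldh1l1 of 3 tested mature glia markers (2.06, adjusted p = 0.0046) and Kdr of 3 endothelial markers (1.76, adjusted p = 0.0121), while 0 of 2 endoderm and 0 of 2 muscle markers passed in this fit, with time as the only factor. The median log2 fold change of the endoderm markers was 1.54. With the replicate block, 2 of 2 endoderm and 3 of 4 mesenchyme and neural crest markers were called. Of the marker genes named here, Sox3, Nkx6-1, Cdh2 and Twist1 lost their call under 2 to 8 of 19 alternatives and the others under none.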

How the data were processed

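RNA from prominin-1 sorted NSCs was analysed, with groups and replicate numbers taken from the sample labels. According to the submitters' processing notes and the methods of the study, the authors aligned single-end reads to GRCm38 with TopHat2 2.0.4, deposited counts from HTSeq 0.6.1 without normalization and computed the deposited FPKM with Cufflinks 2.1.1. The deposited counts were expected to be whole, but 98 symbols held fractional values, as in estimated counts, and were rounded. The deposited log2 values, which the authors made with limma voom, matched log2 CPM and were not tested. The tests had been planned for whole counts.

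One edgeR 4.0.16 quasi-likelihood model (R 4.3.3; TMM, filterByExpr) with time as its factor was fitted to 9 libraries (6 residual degrees of freedom), with Benjamini-Hochberg adjustment over 14742 genes at 0.05. Log2 CPM used a prior count of 2. Alternatives used DESeq2 1.42.0, limma 3.58.1, other scalings and filters, a replicate block and each library left out. Exact permutation tests and plots used Python 3.11.15, numpy 2.4.6, pandas 2.3.3 and matplotlib 3.10.9. The 10 members, the lists and the 3 genes nearest to each of Ptbp1, Ptbp2, Elavl3 and Srrm4 are the named genes; members and lists were chosen with earlier results of these data known, and some entries of the lists and of the nearest genes are not reported here. Deviations of same-numbered libraries correlated at 0.743, 0.386 and 0.452 between 4.5DDC and 5.5DDC and at 0.454, 0.367 and 0.197 between 5.5DDC and 6.5DDC, which met the rule for paired libraries (every correlation over 0.1). The reported tests use no block there, as planned, and the block changed no member's call in these intervals. It added Nova1 and Rbfox1 across the 3 time points (14.8% of all genes called) and over the whole span (23.2%). Floors of 3 counts cover counting error only.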

Additional observations from a re-analysis of the deposited data

How the results depend on the processing

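The 3 libraries per time point, read to between 11066572 and 25506192 counts, limit what can be seen in genes such as Rbfox1 and Rbfox3, and paralogs or overlapping genes may share reads. The number of members changed from 4.5DDC to 5.5DDC was 0 under every setting tried. From 5.5DDC to 6.5DDC it was 1 with DESeq2 (4.49% of all genes) and 2 without replicate 1 of every time point (4.97%). Over the whole span it was 3 with the replicate block (Ptbp1, Nova1 and Rbfox1), where 23.2% of all genes were called. It was 4 without replicate 1 of every time point (31.3%) and between 1 and 2 with single libraries left out. Calls among all genes also moved with the library left out, for example 2213 of 14923 without 4.5DDC replicate 1 and 1152 of 15140 without 4.5DDC replicate 2. Across the 3 time points the number of members was 3 with the replicate block (14.8% of all genes) and 3 without replicate 1 of every time point (22.7%). It was between 0 and 2 with single libraries left out, where the calls among all genes also moved. Those were 1420 of 14742 with all libraries, 1052 of 14923 without 4.5DDC replicate 1 and 437 of 15140 without 4.5DDC replicate 2. Over the whole span the replicate numbers did not pair the libraries (correlations of 0.383, −0.040 and −0.215, with only replicate 1 correlating best with its own number). The block gave Nova1 0.64 (adjusted p = 0.0192) and Rbfox1 1.98 (adjusted p = 0.0147) there, and in the adjacent intervals it changed no member's call. Among the whole-span marker counts it gave 6 of 11 neuron, 2 of 2 endoderm and 3 of 4 mesenchyme and neural crest markers, against 2, 0 and 1 without it. The slope of the Ptbp1 to Ptbp2 ratio had an exact permutation p = 0.139 with arrangements kept within the replicate number (block), ranged from −0.49 to −0.18 per day with single libraries left out, and missed the threshold under every setting. Of the members' fold changes under the alternatives, 9 became called, none lost its call and 48 changed sign, while the others kept both. The cause was not tested.
The sign turned in the first interval for Ptbp1 on both log2 FPKM scales (0.0141 and 0.0142), for Rbfox2 with limma voom (−0.0037) and with the replicate block (−0.0247), and for Elavl3 with limma voom (−0.0513), both log2 FPKM scales (−0.0069 and −0.0129) and the replicate block (−0.0889). In the second interval it turned for Elavl3 with RLE scaling (0.0115), no filter (0.0121), DESeq2 (0.0090) and without replicate 1 of every time point (0.0117), and for Elavl4 on both log2 FPKM scales (−0.0288 and −0.0291). Over the whole span it turned for Elavl3 with limma voom (−0.0765), both log2 FPKM scales (−0.0777 and −0.0895) and the replicate block (−0.12).
With single libraries left out, first-interval values ranged from −0.13 to 0.24 for Nova1, −0.82 to 0.67 for Rbfox1, −0.11 to 0.20 for Rbfox2, −0.20 to 0.41 for Elavl3 and −0.0774 to 0.32 for Elavl4. Second-interval values ranged from −0.0113 to 0.38 for Ptbp2, −0.0587 to 0.43 for Nova2, −0.44 to 0.98 for Rbfox3, −0.42 to 0.38 for Elavl3, −0.0748 to 0.40 for Elavl4 and −0.18 to 0.59 for Srrm4. Whole-span values ranged from −0.31 to 0.0838 for Ptbp2, −0.38 to 0.42 for Elavl3 and −0.61 to 0.16 for Srrm4. The main values lay inside these ranges.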
